A study of Macaca fascicularis with 6 samples.

Results

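Genes of fibrillar and associated collagens were followed across the cell types of the cynomolgus monkey lung, namely COL1A1, COL1A2, COL3A1, COL5A1, COL5A2, COL6A1, COL6A2, COL6A3 and COL27A1. These 9 genes were taken by symbol from the 28623 genes of the count tables, and each of the 9 symbols belonged to 1 row, among 41 collagen genes that carry a symbol. All libraries came from male monkeys aged 3 to 5 years, and lungs were collected in week 11. Monkeys of the asthma group (replicates 8, 10 and 11) had been sensitized with Ascaris suum antigen at 1 mg/mL and challenged intranasally at 10 mg/mL, and those of the control group (replicates 1, 2 and 3) had received saline. Lung tissue was dissociated with collagenase, papain and DNase, so the libraries hold the cells that survive this treatment. Each monkey gave 1 droplet-based 3′ library, in which each captured RNA molecule is counted once by its unique molecular identifier (UMI). The p-values below therefore weigh the difference between the groups against the spread between libraries. In that spread, differences between monkeys and between library preparations cannot be told apart.

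Collagens are proteins of 3 chains wound into a helix, and they carry the load in the walls of airways and vessels. Type I collagen, made of the COL1A1 and COL1A2 chains, and type III collagen, made of COL3A1 chains alone, form the bulk of the striated fibrils of the lung. Type V collagen, with the chains COL5A1 and COL5A2, starts new fibrils and limits their diameter. Type VI collagen, with the chains COL6A1, COL6A2 and COL6A3, forms beaded filaments between cells and fibrils and is not itself a striated fibril, so that 6 of the 9 genes encode fibril-forming chains and 3 encode an associated collagen. COL27A1 encodes a fibril-forming chain best known from developing cartilage. In asthma, collagen beneath the airway epithelium is a known part of remodelling.

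After quality control, the 3 control libraries retained 4339, 3200 and 3902 cells and the 3 asthma libraries 4136, 4620 and 4038, or 24235 cells in all, always given in the order of their replicate numbers. Their medians lay between 3835 and 5048.5 UMIs per cell. Among the retained cells, 150 had a barcode sequence that also occurred in another library. Levels are given as CPM, which scales the UMIs of a gene to the total UMIs of the same cells and library. Cells were clustered without the collagen genes and named by marker lists, so the 9 genes did not choose the cells in which they are described. Of the 24 populations, the one named Fib-like held 659 cells, and all 12 of its fibroblast markers were detected in each of the 6 libraries. Decorin (DCN), a proteoglycan that binds collagen fibrils, stood at 30471, 30288 and 32197 CPM in Fib-like cells of the control libraries and at 20162, 19828 and 28094 CPM in those of the asthma libraries. The 12 markers summed to 68141, 56401 and 80153 CPM in the control and to 44364, 56107 and 48508 CPM in the asthma libraries. Not every marker followed DCN. The groups overlapped for MFAP4 and for LUM, the latter at 3209, 4396 and 2199 CPM against 3214, 4758 and 3635 CPM.

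Before any comparison of conditions, 1 library has to be named. In Fib-like cells of control replicate 2, COL1A1, COL1A2 and COL3A1 stood far above the other 5 libraries, and the other 2 control libraries were the lowest of all. The fitted fold changes of the 8 collagen genes tested in Fib-like cells are given with and without it.

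Most of the collagen RNA lay in Fib-like cells. Fib-like cells made up 1.01%, 2.47% and 4.20% of the retained cells in the control libraries and 1.89%, 1.30% and 5.79% in the asthma libraries, yet they held 54.8%, 82.5% and 72.4% of all UMIs of the 9 genes in the former and 68.0%, 59.0% and 81.7% in the latter, a mean of 69.7% ± 11.5 (SD, n = 6). MC-like cells, the class that the study calls MC, were named here from UPK3B, MSLN, ITLN1, CALB2, WT1, BNC1 and LRRN4. They held 19.5%, 1.79% and 5.13% in the control libraries and 15.4%, 25.2% and 1.48% in the asthma libraries. The number of MC-like cells was 166, 49 and 52 in the control and 271, 208 and 31 in the asthma libraries, and the 3 libraries with the most of them had the 3 largest shares. Sub-clusters that mixed markers of 2 classes were left out of both classes and held 10.2% of the UMIs of the 9 genes when the libraries were pooled. Myofibroblast-like cells held 13.2% in control replicate 1 and at most 4.20% in the other libraries.

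**Figure D1:**
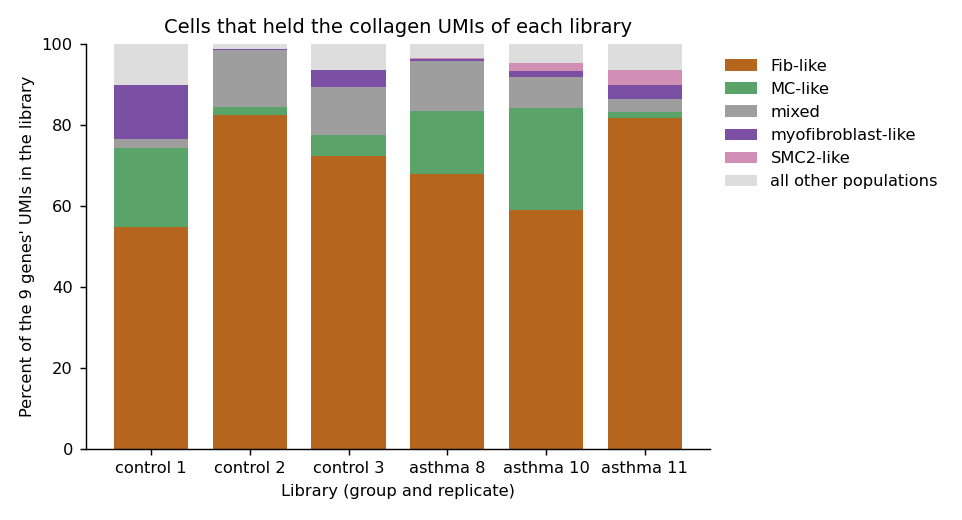
Stacked bars give the percent of the UMIs of the 9 collagen genes that lay in each cell population, for each of the 6 libraries (x axis). In each library Fib-like cells hold the largest share, from 54.8% in control replicate 1 to 82.5% in control replicate 2.

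The type I genes were the most concentrated. Pooled over libraries, COL1A1 reached 10624 CPM in Fib-like cells, 950.3 CPM in a stromal sub-cluster led by ITGA8, 726 CPM in myofibroblast-like cells, 361 CPM in MC-like cells, 335 CPM in SMC-like (smooth muscle) cells and 67.3 CPM in SMC2-like cells, a group with pericyte markers. Without control replicate 2 the pooled COL1A1 level of Fib-like cells was 6606 CPM. COL1A2 followed the same ranking at the top, with 5515 CPM in Fib-like cells (4393 CPM without control replicate 2) and 869.6 CPM in the ITGA8-led sub-cluster. Among libraries with at least 10 cells of a population, the lowest Fib-like library lay above the highest of every other population for both genes, with 2555 against 1763 CPM for COL1A1 and 1971 against 1206 CPM for COL1A2. Below that level the order was less firm. The ITGA8-led, myofibroblast-like, SMC-like and MC-like libraries overlapped from each rank to the next for COL1A1.

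COL3A1 was spread over more stromal cells than the type I genes. Its pooled level was 5333 CPM in Fib-like cells (3839 CPM without control replicate 2), 2205 CPM in the ITGA8-led sub-cluster, 1415 CPM in SMC2-like cells, 1330.4 CPM in myofibroblast-like cells, 612 CPM in SMC-like cells and 504 CPM in MC-like cells. From each of these to the next the libraries overlapped. The ratio of COL1A1 to COL3A1 UMIs was 1.99 in Fib-like cells, 0.546 in myofibroblast-like cells and 0.716 in MC-like cells, and the 95% exact intervals of the last 2 ratios, 0.490 to 0.608 and 0.681 to 0.753, did not reach that of Fib-like cells, 1.96 to 2.03. Control replicate 2 raised the pooled ratio of Fib-like cells, with 2.43 against 1.68 to 1.84 in the other 5 libraries, and without it the ratio was 1.72 (1.68 to 1.76). Intervals of this kind, and those of shares of cells, cover counting error only. EC2-like cells, a group of endothelial cells, had COL3A1 at 164 CPM with COL1A1 at only 2.32 CPM. In EC2-like cells of the 6 libraries COL3A1 stood at 160.2, 269.8 and 118 CPM in the control and at 250.5, 199 and 32.9 CPM in the asthma libraries, so that it was present in each of them and the groups overlapped.

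The 2 chains of type V collagen differed in level. COL5A2 was highest in SMC2-like cells, with 781 and 1067 CPM in the 2 libraries that had at least 10 such cells, both above the ITGA8-led sub-cluster (279, 437 and 603 CPM) and Fib-like cells (176 to 425 CPM), which overlapped with each other. SMC2-like cells numbered 1, 0 and 1 in the control and 7, 25 and 125 in the asthma libraries, so that these levels come from asthma libraries. COL5A1 was low throughout. It reached 26.9 CPM in the ITGA8-led sub-cluster, which rests on 3 UMIs, 19.5 CPM in myofibroblast-like cells and 18.1 CPM in Fib-like cells, and the libraries of these 3 populations overlapped. SMC2-like cells had 5.60 CPM of COL5A1, which rests on 2 UMIs, and the 0 of asthma replicate 10 allows up to 76.2 CPM. Whether COL5A1 was lower there than in Fib-like cells cannot be told from so few UMIs.

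Type VI collagen was found across the stromal populations. COL6A2 stood at 3336 CPM in Fib-like cells, 2636 CPM in the ITGA8-led sub-cluster, 1261 CPM in SMC2-like cells, 739.9 CPM in SMC-like cells, 672 CPM in myofibroblast-like cells, 561 CPM in lymphatic endothelial cells and 256 CPM in MC-like cells. Much of this order was not firm. The ITGA8-led libraries overlapped with the Fib-like and with the SMC2-like libraries. The SMC-like, lymphatic endothelial and myofibroblast-like libraries overlapped with each other as well. COL6A1 stayed below COL6A2 in each of these populations, and the ratio of COL6A1 to COL6A2 UMIs was 0.0949 in Fib-like, 0.149 in myofibroblast-like and 0.208 in MC-like cells. COL6A3 had a different order. It was highest in the ITGA8-led sub-cluster (164, 139 and 600.0 CPM in the asthma libraries, from 3, 3 and 43 UMIs), then in myofibroblast-like cells (66.8 to 110.1 CPM), SMC-like cells (64.2 and 119 CPM) and SMC2-like cells (55.8 and 76.2 CPM), while Fib-like cells ranged from 30.9 to 81.5 CPM. The first of these steps was free of overlap between libraries, but by a margin that rests on the 3 UMIs of asthma replicate 10. Thus the ratio of COL6A3 to COL6A2 UMIs was 0.151 in myofibroblast-like cells and 0.0178 in Fib-like cells, with 95% intervals of 0.117 to 0.194 and 0.0156 to 0.0202.

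COL27A1 was, like COL6A3, highest in the ITGA8-led sub-cluster. It was at 332 CPM in the ITGA8-led sub-cluster, which held 37 UMIs in 48 cells, at 95.8 CPM in SMC-like, 61.6 CPM in SMC2-like and 55.7 CPM in myofibroblast-like cells, but at 7.71 CPM in Fib-like cells. The order of the SMC-like, SMC2-like and myofibroblast-like cells was not firm, because their libraries overlapped. SMC-like cells had 147 CPM in control replicate 3 and no UMI in the 13 cells of asthma replicate 11, which allows up to 89.2 CPM. SMC2-like cells had 203 and 39.4 CPM in asthma replicates 10 and 11. A cluster outside the stromal class, left unnamed and led by the keratin genes KRT15, KRT5, KRT14 and KRT17, which are known from basal epithelial cells, had 59.7 CPM. In this cluster of 171 cells, COL27A1 was found in 40.9% of cells, whereas COL3A1 had 1 UMI. Its level there was 46.2, 68.0 and 66.0 CPM in the control and 42.8, 59.1 and 44.5 CPM in the asthma libraries, of which control replicate 2 had 5 cells. The groups overlapped. This cluster alone held 21.3% of all COL27A1 UMIs, and Fib-like cells held 6.53%. In T and NK-like cells, the largest population, COL27A1 was found in 0.904% of 10174 cells, at medians between 3251 and 4484 UMIs per cell in the 6 libraries. These cells held 20% of all COL27A1 UMIs at a level of 2.40 CPM.

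**Figure D2:**
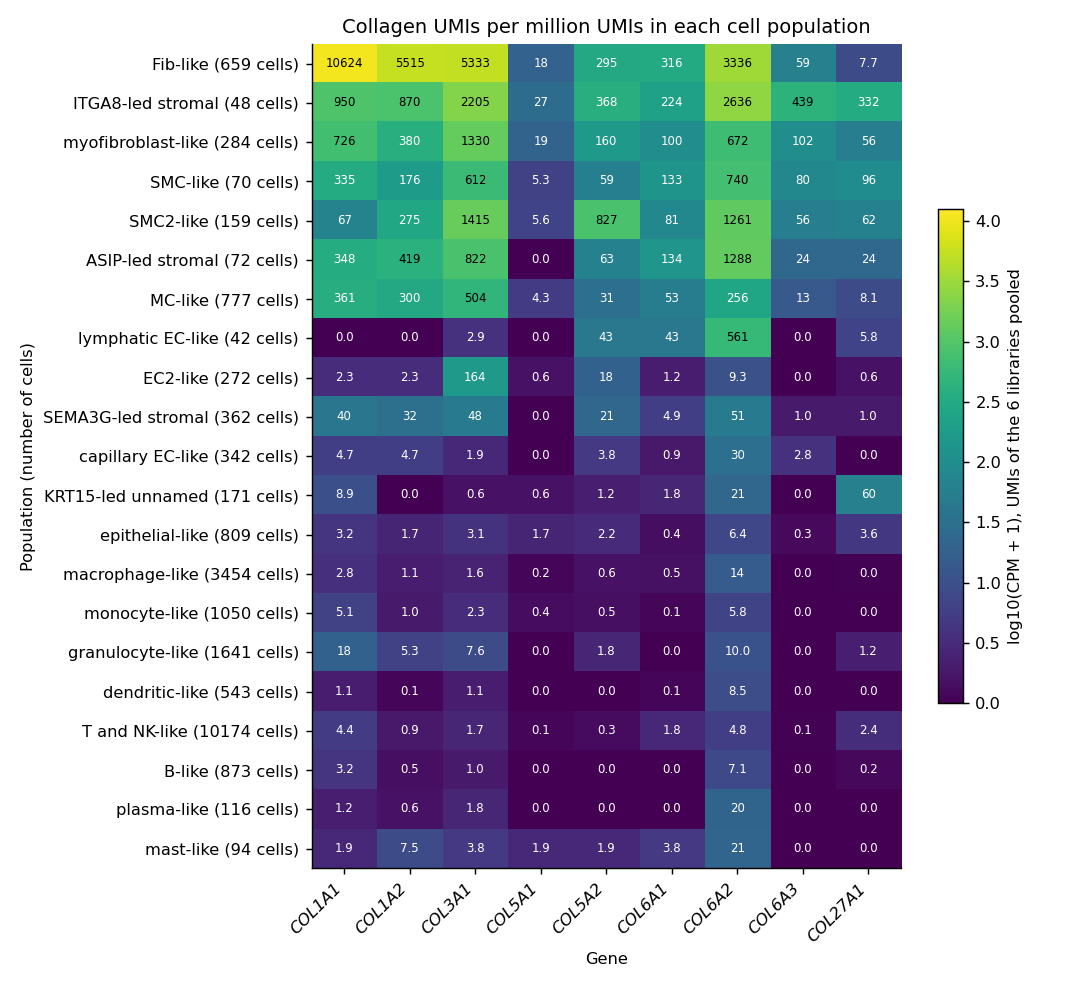
Each square gives the pooled CPM of a collagen gene (columns) in a cell population (rows), on a log colour scale. COL1A1 and COL1A2 are highest in Fib-like cells, COL5A2 in SMC2-like cells and COL6A3 and COL27A1 in the ITGA8-led stromal sub-cluster.

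T and NK-like cells are not known to make type I collagen and serve as the background here, except for COL27A1. That gene stood at 2.40 CPM in them, against 0.0467 CPM in macrophage-like cells and 0 UMIs in monocyte-like cells. Whether their collagen UMIs came from free RNA or from doublets, which were kept, was not tested. COL1A1 was found in 0.106%, 5.46% and 0.590% of T and NK-like cells of the control libraries and in 1.63%, 0.773% and 2.21% of those of the asthma libraries, at levels from 0.292 to 11.8 CPM. Control replicate 2, with the highest COL1A1 in Fib-like cells, also had the highest share here. In Fib-like cells COL1A1 was found in 95.1% to 100% of cells, at medians from 4604.5 to 7643 UMIs per cell. Macrophage-like cells had COL6A2 at 14.4 CPM with COL6A1 at 0.529 CPM. Control replicate 1 had 227 COL6A2 UMIs, no COL6A1 UMI and 3 COL1A1 UMIs in macrophage-like cells, against 606, 63 and 692 in its Fib-like cells. The source of these UMIs was not tested. The level of COL6A2 in macrophage-like cells varied from 1.39 CPM in asthma replicate 10 to 34.6 CPM in asthma replicate 8.

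Across 80 units of 1 named population in 1 library, the 9 genes rose and fell together to different degrees. The correlation of log2(CPM + 10) was 0.98 for COL1A1 with COL1A2 and 0.97 for COL6A1 with COL6A2, and COL27A1 ranged from 0.46 with COL1A1 to 0.66 with COL5A2 and 0.71 with COL6A3. The genes outside the 9 whose pattern was most like that of COL1A1 were BICC1 (0.96), PRELP (0.95), DCN (0.95), SLIT3 (0.95) and MMP23B (0.95). Of these, DCN was itself a marker by which Fib-like cells were named. Those most like COL6A3 were ANGPT1 (0.95), DZIP1 (0.94), CAMK2N1 (0.94), TBX5 (0.93) and PRELP (0.93). For COL27A1 the nearest genes were GNG8 (0.85), KLHL23 (0.83), FIGN (0.82), TBX5 (0.81) and CACNB2 (0.80). These are Pearson correlations over the 17 named populations, given as a description, and units of 1 library share its depth. The ITGA8-led sub-cluster and the KRT15-led cluster, both described above, were not among the 17. The correlations of COL6A3 and COL27A1 therefore leave these cells out.

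The comparison of asthma with control asks whether the collagen genes changed in the model. In Fib-like cells COL1A1 stood at 2676, 34646 and 2555 CPM in the control libraries (replicates 1, 2 and 3) and at 12474, 7856 and 6771 CPM in the asthma libraries (replicates 8, 10 and 11). COL1A2 stood at 2088, 12223 and 1971 CPM and at 6604, 5531 and 5107 CPM in the same order. The groups overlapped for both genes, because the asthma libraries lay between control replicate 2 and the other 2 control libraries. The fitted log2 fold change of asthma over control was -0.73 (SE 0.85, adjusted p = 0.852, edgeR) for COL1A1 and -0.091 (SE 0.62, adjusted p = 0.990, edgeR) for COL1A2. Without control replicate 2 the values were 1.72 (SE 0.39, adjusted p = 0.121) and 1.42 (SE 0.32, adjusted p = 0.121), so that the direction turned and neither passed the test.

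**Figure D3:**
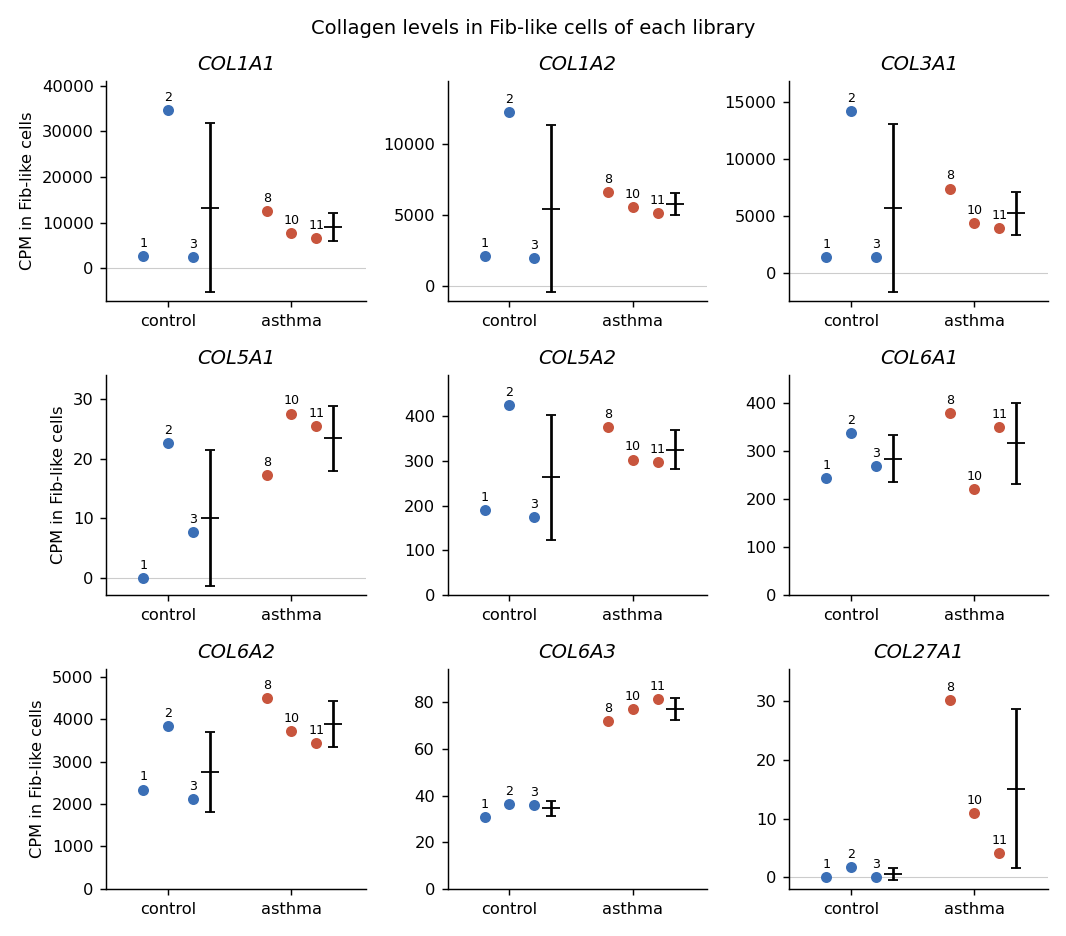
Points give the CPM of each collagen gene in Fib-like cells of each library, with the mean and SD of each group (n = 3), in 1 panel per gene with a linear axis that includes 0. Control replicate 2 stands above the other libraries for COL1A1, COL1A2 and COL3A1, and for COL6A3 the 3 asthma libraries (72.0 to 81.5 CPM) lie above the 3 control libraries (30.9 to 36.4 CPM).

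The high level in control replicate 2 was carried by most of its Fib-like cells. The median COL1A1 level per cell was 28686 CPM in its 79 Fib-like cells, against 1415 and 1406 CPM in control replicates 1 and 3 and 7750, 5724 and 4770 CPM in the asthma libraries. The lower quartile of its cells was 16918 CPM, and the 10% of its cells with the highest level held 30.7% of the COL1A1 UMIs, a smaller share than in the other 5 libraries (35.4% to 48.0%). The ratio of COL1A1 to COL1A2 UMIs was 2.83 in this library, with a 95% interval of 2.76 to 2.91, against 1.28, 1.30, 1.89, 1.42 and 1.33 in the others. Fib-like cells fell into a sub-cluster led by CCL11 and one led by RBP4. COL1A1 was high in both in control replicate 2, at 37044 and 32618 CPM, while the CCL11-led cells of control replicates 1 and 3 had 5091 and 5012 CPM and their RBP4-led cells 1641 and 1876 CPM.

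**Figure D4:**
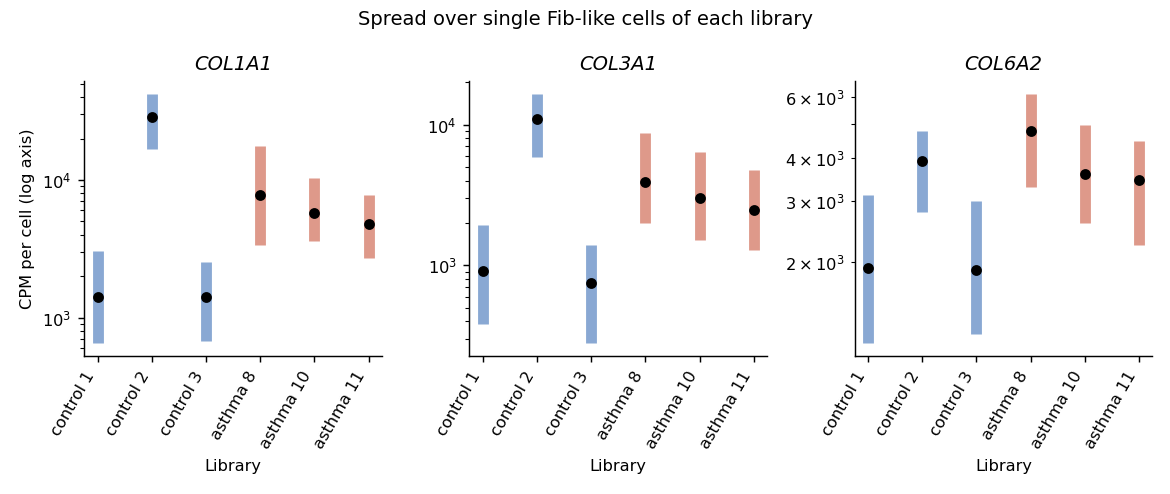
Dots give the median and bars the quartiles of the level per cell of COL1A1, COL3A1 and COL6A2 in Fib-like cells of each library, on a log axis of CPM. For COL1A1 the lower quartile of control replicate 2 (16918 CPM) lies above the medians of the other 5 libraries (1406 to 7750 CPM).

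The mix of the Fib-like sub-clusters differed between the groups as well. RBP4-led cells made up 63.6%, 54.4% and 76.8% of the Fib-like cells in the control libraries and 23.1%, 30% and 0.427% in the asthma libraries, and they were the lower of the 2 for COL1A1 except in asthma replicate 8, where they stood at 19205 CPM against 10210 CPM. In CCL11-led cells alone, COL1A1 stood at 5091, 37044 and 5012 CPM in the control and at 10210, 8549 and 6776 CPM in the asthma libraries, and the groups still overlapped.

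COL3A1 in Fib-like cells stood at 1454, 14268 and 1439 CPM in the control and at 7430.0, 4386 and 3939 CPM in the asthma libraries, the same pattern as the type I genes. Its log2 fold change was -0.30 (SE 0.76, adjusted p = 0.947, edgeR) and, without control replicate 2, 1.79 (SE 0.39, adjusted p = 0.116).

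For type V collagen, COL5A2 stood at 189, 425 and 176 CPM in the control and at 376, 303 and 298 CPM in the asthma libraries, with a log2 fold change of 0.15 (SE 0.34, adjusted p = 0.940, edgeR). COL5A1 had no UMI in Fib-like cells of control replicate 1, which allows a level of up to 11.6 CPM, and stood at 22.6 and 7.64 CPM in control replicates 2 and 3 and at 17.3, 27.6 and 25.5 CPM in the asthma libraries. For COL5A1 the log2 fold change was 0.86 (SE 0.57, adjusted p = 0.686, edgeR). The groups overlapped for both chains, in each case through control replicate 2 alone. Without that library the log2 fold changes were 0.76 (SE 0.27, adjusted p = 0.367, edgeR) for COL5A2 and 1.89 (SE 0.64, adjusted p = 0.331, edgeR) for COL5A1.

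COL6A3 was the 1 gene of the 8 tested whose groups did not overlap in Fib-like cells. It stood at 30.9, 36.4 and 36.0 CPM in the control and at 72.0, 77.2 and 81.5 CPM in the asthma libraries, means of 34.5 ± 3.06 and 76.9 ± 4.77 CPM (SD, n = 3 each). The difference, a log2 fold change of 0.99 (SE 0.23), did not pass the edgeR test after adjustment over the 6590 genes tested (adjusted p = 0.107). For 8.01% of all genes tested every asthma library was higher, and COL6A3 was the 1 such gene of the 8 collagen genes tested. Without control replicate 2 the log2 fold change of COL6A3 was 1.07 (SE 0.27, adjusted p = 0.167). COL6A3 was found in 18.2%, 20.3% and 17.7% of Fib-like cells of the control and in 37.2%, 28.3% and 25.2% of those of the asthma libraries, against at most 0.0532% of T and NK-like cells. With each cell thinned to 2000 UMIs, the shares were 9.52%, 5.13% and 6.83% against 13.7%, 14.5% and 12.6%, after 2, 1 and 3 control and 5, 5 and 27 asthma cells with fewer UMIs were left out. In CCL11-led cells alone COL6A3 stood at 38.7, 49.2 and 40.3 CPM against 71.2, 83.2 and 81.6 CPM, and in RBP4-led cells at 27.6, 25.6 and 34.8 CPM against 74.4, 65.4 and 0 CPM, the last from 1 cell.

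The summed markers of some other cell types in Fib-like cells differed between the same groups, each sum mostly through 1 gene. The 8 smooth muscle markers summed to 576, 290 and 454 CPM in the control and to 1155, 1332 and 1606 CPM in the asthma libraries, most of it TAGLN (522, 259 and 435 against 1021, 1302 and 1563 CPM), while ACTG2 was at 0 in all 6 libraries. LMOD1 was higher in every asthma library as well (19.3, 22.6 and 10.9 against 102, 24.8 and 32.9 CPM), whereas the groups overlapped for MYH11, at 15.5, 5.20 and 2.18 CPM against 0, 0 and 6.59 CPM, and for ACTA2, at 3.87, 3.47 and 5.46 CPM against 7.2, 2.76 and 2.47 CPM. The 7 myofibroblast markers summed to 468, 283 and 263 CPM and to 105, 91.0 and 101 CPM, of which HHIP had 371, 260.2 and 206 CPM against 80.6, 46.9 and 10.7 CPM, while SOSTDC1 overlapped between the groups (46.4, 10.4 and 29.5 against 14.4, 8.28 and 60.1 CPM). The 7 EC2 markers summed to 1005, 883 and 966 CPM and to 563, 775 and 775 CPM, nearly all of it CPE, and GJA5 and BMX were at 0 in all 6 libraries. The 7 MC markers summed to 3.87, 15.6 and 6.55 CPM and to 251, 85.5 and 17.3 CPM. Their part in the COL6A3 values was not tested.

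For the other 2 chains of type VI collagen the groups overlapped, for COL6A2 through control replicate 2 alone. COL6A1 stood at 244, 338 and 269.7 CPM in the control and at 379, 221 and 349.9 CPM in the asthma libraries, with a log2 fold change of 0.021 (SE 0.26, adjusted p = 0.994, edgeR). COL6A2 was at 2343, 3839 and 2108 CPM and at 4503, 3721 and 3451 CPM, with 0.35 (SE 0.33, adjusted p = 0.795, edgeR). Without control replicate 2 the values were 0.22 (SE 0.29, adjusted p = 0.888, edgeR) for COL6A1 and 0.73 (SE 0.30, adjusted p = 0.494, edgeR) for COL6A2.

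None of the 8 collagen genes tested in Fib-like cells was a differentially expressed gene (DEG, log2 fold change beyond 0.25 in either direction and adjusted p under 0.05), against 0.379% of the 6590 genes tested (edgeR, Benjamini-Hochberg). At an unadjusted p under 0.05 there was 1, COL6A3, against 9.74% of the genes tested, and DESeq2 called 0, against 0.986%. For none of the 8 was every asthma library lower, against 7.68% of the genes tested. The median log2 fold change of the 8 genes was 0.085, and that of all genes tested was 0.0045.

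**Figure D5:**
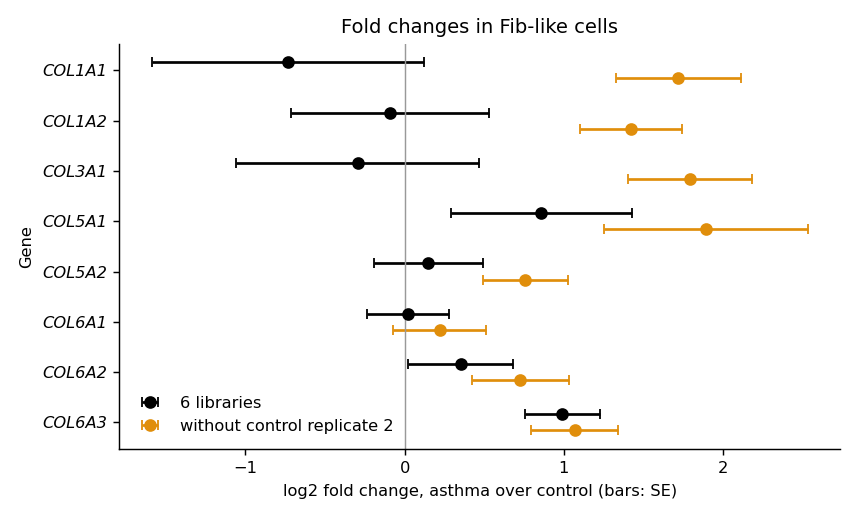
Points give the log2 fold change of asthma over control in Fib-like cells from edgeR, with bars of 1 SE, from all 6 libraries and without control replicate 2. The values of COL1A1, COL1A2 and COL3A1 move from below 0 to between 1.42 and 1.79, and that of COL6A3 moves from 0.99 to 1.07.

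COL27A1 was too low in Fib-like cells to enter the test. It had 1 UMI in 1750978 in Fib-like cells of the control libraries and 30 in 2271511 in those of the asthma libraries, a ratio of 23.1 with a 95% exact interval of 3.84 to 943 from counting alone. By library this was 0, 1 and 0 UMIs against 21, 4 and 5, or 30.2, 11 and 4.12 CPM in asthma replicates 8, 10 and 11, so that 1 library held most of them. The 0 of control replicates 1 and 3 allows up to 11.6 and 3.28 CPM, and the first of these limits lies above the levels of asthma replicates 10 and 11. Every asthma library was higher, but the gene could pass a filter only through the group in which it was high. When every gene with a count was tested, COL27A1 was 1 of the 2.37% of 15204 genes called by edgeR, in a fit that shifted the median of all genes to 0.12. No fit without asthma replicate 8 was made, and nothing is read from that call.

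In MC-like cells COL1A1 stood at 324, 471 and 326 CPM in the control and at 342, 378 and 452 CPM in the asthma libraries. COL1A2 stood at 112, 464 and 101 CPM and at 361, 258 and 716 CPM, with a log2 fold change of 0.81 (SE 0.60, adjusted p = 0.901, edgeR). It rested on single libraries, with 1.96 (SE 0.44, adjusted p = 0.243, edgeR) without control replicate 2, 0.47 and 0.41 without control replicates 1 and 3 and 0.33 without asthma replicate 11. The ratio of COL1A1 to COL1A2 UMIs thus ranged from 0.631 in asthma replicate 11 to 3.21 in control replicate 3. Of the 6 collagen genes tested, 0 were DEGs, against 0.0148% of the 6739 genes tested, 0 had an unadjusted p under 0.05 (5.8% of all genes) and DESeq2 called 0 (0.223% of all genes). For none of the 6 was every asthma library higher, against 5.48% of the genes tested, or every one lower, against 5.28%. Their median log2 fold change was 0.22, against -0.0068 for all genes. COL5A1, COL6A3 and COL27A1 were below the limit for the test. COL5A1 stood at 3.70, 6.80 and 5.85 CPM in the control and at 3.61, 4.94 and 0 CPM in the asthma libraries, and the groups overlapped. COL6A3 had 7, 3 and 4 UMIs (8.64, 6.80 and 7.80 CPM) in the control and 43, 28 and 10 UMIs (14.1, 12.6 and 45.6 CPM) in the asthma libraries. COL27A1 stood at 2.47, 4.53 and 3.90 CPM and at 7.87, 11.7 and 13.7 CPM. For COL6A3 and COL27A1 every asthma library was higher, on few UMIs. With every gene tested none of the 3 passed (adjusted p = 0.888, 0.548 and 0.591, edgeR). Some markers of other cell types differed between the groups in MC-like cells. PTPRC stood at 242, 36.2 and 42.9 CPM in the control and at 13.4, 25.1 and 0 CPM in the asthma libraries. For RGCC it was 307, 49.8 and 62.4 against 19.7, 48.5 and 27.4 CPM, while the groups overlapped for TAGLN. Control replicate 1 had a median of 2470 UMIs per MC-like cell, against 7016 to 10638 in the other libraries. The part of these differences in the collagen values was not tested.

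Myofibroblast-like, SMC-like and SMC2-like cells had at least 10 cells in too few libraries for a test with the clusters used here. Myofibroblast-like cells numbered 54, 6 and 66 in the control and 9, 6 and 143 in the asthma libraries. Among the 3 libraries with at least 10, COL3A1 stood at 1683 and 1211 CPM in control replicates 1 and 3 and at 863 CPM in asthma replicate 11, and COL6A3 at 66.8, 110.1 and 109.9 CPM. At a clustering resolution of 1.6 and with collagen genes kept for clustering, asthma replicate 8 had 10 such cells and a fit of 4 libraries was possible, which gave the same values in both. Of its 2555 genes 8 were DEGs and 0 of the 7 collagen genes tested, with log2 fold changes of -0.53 (SE 0.33, adjusted p = 0.948, edgeR) for COL3A1 and 0.25 (SE 0.46, adjusted p = 0.995, edgeR) for COL6A3. The ITGA8-led sub-cluster, with the highest COL6A3 and COL27A1, came from the asthma libraries alone, with 10, 10 and 28 cells. The 0 of 4339, 3200 and 3902 cells in the control libraries allows a share of up to 0.0691%, 0.0938% and 0.0769%, and in the asthma libraries it was 0.242%, 0.216% and 0.693%. Its leading genes include ITGA8, which pairs with ITGB1, and NPNT, a matrix ligand of that pair.

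All stromal-like cells together (2310 cells) mix these populations, so that a different mix of cells and a different level per cell cannot be told apart, as in the whole libraries. They held 103, 120 and 92 capillary EC-like cells in the asthma libraries against 8, 13 and 6 in the control libraries, and a sub-cluster led by SEMA3G had 84, 72 and 196 cells against 4, 0 and 6. COL1A1 there had a log2 fold change of -1.77 (SE 1.10, adjusted p = 0.417, edgeR), and 1.25 without control replicate 2. COL27A1 was the 1 gene of the 9 with every asthma library higher, against 13.5% of the genes tested, and none had every one lower, against 12.2%. Its level, scaled by TMM, was 8.92, 5.79 and 14.6 CPM in the control and 15.8, 18.2 and 18 CPM in the asthma libraries, with a log2 fold change of 0.70 (SE 0.34, adjusted p = 0.302, edgeR). No collagen gene of the 9 was a DEG, against 1.93% of the 9539 genes tested, and 0 had an unadjusted p under 0.05, against 19%. DESeq2 called 0 as well, against 4.81%. Their median log2 fold change was -0.34, against 0.0086 for all genes.

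Over whole libraries the 9 genes summed to 123, 1869 and 395 CPM in the control and to 1079.6, 421 and 1172 CPM in the asthma libraries, so that control replicate 2 was the highest and control replicate 1 the lowest. COL5A1 was the 1 gene with every asthma library higher, against 10.1% of the genes tested, and none had every one lower, against 9.13%. It stood at 0.348, 0.732 and 0.619 CPM in the control and at 1.26, 0.866 and 1.89 CPM in the asthma libraries, with a log2 fold change of 1.10 (SE 0.43, adjusted p = 0.357, edgeR). COL6A3 stood at 0.869, 1.30 and 2.48 CPM and at 3.98, 2.26 and 8.90 CPM, with 1.57 (SE 0.57, adjusted p = 0.338, edgeR), and the groups overlapped. COL1A1 had a log2 fold change of -0.54 (SE 1.13, adjusted p = 0.877, edgeR), and 1.92 without control replicate 2. Of the 9 genes 0 were DEGs, against 0.0839% of the 14306 genes tested, 2 had an unadjusted p under 0.05 (COL6A3 and COL5A1), against 12.9%, and DESeq2 called 0, against 4.52%. Their median log2 fold change was 0.78, against -0.015 for all genes. In the barcodes that quality control removed, 8 of the 9 genes had every asthma library higher, against 8.35% of genes, with COL27A1 as the exception.

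Genes that build, process, degrade or sense collagen, and the other collagens, were examined as 6 lists. Of all genes tested, an unadjusted p under 0.05 was found for 9.74% in Fib-like cells, 12.9% in whole libraries, 5.8% in MC-like cells and 19% in stromal-like cells, and the counts below stand against these shares. Of the 19 enzymes and chaperones of collagen biosynthesis, 14 were tested in Fib-like cells and 0 were DEGs by edgeR or DESeq2, with 0 at an unadjusted p under 0.05 and a median log2 fold change of 0.17. In whole libraries 19 and in stromal-like cells 15 were tested, with 0 DEGs by edgeR and 2 and 0 genes at an unadjusted p under 0.05, while DESeq2 called P4HA2, a prolyl hydroxylase subunit, as higher in whole libraries (4.52% of all genes were called). In stromal-like cells DESeq2 called 4.81% of all genes. The most abundant was SPARC, a collagen-binding chaperone-like protein, which repeated the pattern of the type I genes with 1130.3, 9308 and 1356 CPM in the control and 3041, 1535 and 2079 CPM in the asthma libraries (scaled by TMM), a log2 fold change of -0.83 (SE 0.66, adjusted p = 0.762, edgeR) and, without control replicate 2, of 0.84 (SE 0.34, adjusted p = 0.464, edgeR). PPIB, a prolyl isomerase, and SERPINH1, the collagen chaperone HSP47, had log2 fold changes of 0.084 and 0.37 (adjusted p = 0.949 and 0.728, edgeR).

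Of the 13 genes for propeptide cleavage and cross-linking, 9 were tested in Fib-like cells, with 0 DEGs by edgeR or DESeq2, 3 genes at an unadjusted p under 0.05 and a median log2 fold change of 0.17. Of the 12 tested in whole libraries and 11 in stromal-like cells 0 were DEGs by edgeR, with 3 at an unadjusted p under 0.05 in each, and DESeq2 called LOX as lower in stromal-like cells (4.81% of all genes were called). PCOLCE, which enhances the cleavage of the C-propeptide, was highest in control replicate 2 as well, with 386, 1189 and 362 CPM in the control and 825, 633 and 624 CPM in the asthma libraries. LOX, which cross-links collagen, stood at 275, 481 and 308 CPM and at 257, 248 and 143 CPM, each asthma library below each control library (log2 fold change -0.74, SE 0.29, adjusted p = 0.423, edgeR). PCOLCE2, among the leading genes of the RBP4-led sub-cluster, stood at 382, 73.6 and 311 CPM and at 77.1, 88.0 and 5.35 CPM (adjusted p = 0.291, edgeR).

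Among 12 genes of degradation and its inhibitors, 8 were tested in Fib-like cells and 0 were DEGs by edgeR or DESeq2, with 3 at an unadjusted p under 0.05 and a median log2 fold change of -0.60. Of 10 tested in whole libraries 0 were DEGs by edgeR, with 1 at an unadjusted p under 0.05, and DESeq2 called TIMP3 as higher (4.52% of all genes were called). Of 8 in stromal-like cells 1 fell, against 1.93% DEGs among all genes, with a median of -1.02, and DESeq2 called MMP14 and TIMP1 as lower, against 4.81% of all genes called. TIMP1, an inhibitor of matrix metalloproteinases, stood at 10871, 5562 and 5736 CPM in the control and at 4292, 3403 and 2859 CPM in the asthma libraries (log2 fold change -1.07, SE 0.36, adjusted p = 0.298, edgeR). In all stromal-like cells TIMP1 was a DEG and fell, from 5473, 4776 and 3905 CPM to 2379.9, 1297 and 1532 CPM (log2 fold change -1.44, SE 0.30, adjusted p = 0.0489, edgeR). Of 6 fits that left out 1 library each, that call held in the one without asthma replicate 8 (adjusted p = 0.0401) and was lost in the other 5 (up to 0.179, without control replicate 3, edgeR), with log2 fold changes from -1.73 to -1.28 over the 6, and it held in 4 of 8 other alternatives. TIMP3 and MMP2, the gelatinase, had log2 fold changes of 0.52 and -0.44 in Fib-like cells (adjusted p = 0.757 and 0.743, edgeR).

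Of the 9 collagen receptors, 4 were tested in Fib-like cells, with 0 DEGs by edgeR or DESeq2, 2 genes at an unadjusted p under 0.05 and a median log2 fold change of -0.39. Of 9 tested in whole libraries 0 were DEGs by edgeR, with 1 at an unadjusted p under 0.05, and DESeq2 called ITGA1 as higher (4.52% of all genes were called). Of 7 in stromal-like cells 1 fell (1.93% of all genes were DEGs), while DESeq2 called DDR2 as lower and ITGA1 as higher (4.81% of all genes were called). ITGA1, the integrin chain that pairs with ITGB1 to bind collagen, stood at 37.0, 35.8 and 14.9 CPM in the control and at 68.0, 57.8 and 74.9 CPM in the asthma libraries (log2 fold change 1.35, SE 0.34, adjusted p = 0.138, edgeR). DDR2, a receptor kinase for fibrillar collagen, was a DEG in all stromal-like cells and fell, from 122, 155 and 203 CPM to 86.2, 66.8 and 53.0 CPM (log2 fold change -1.24, SE 0.25, adjusted p = 0.0472, edgeR). The DDR2 call held in 0 of 6 fits without 1 library, with an adjusted p from 0.0596 without asthma replicate 11 to 0.197 without control replicate 3 (edgeR) and log2 fold changes from -1.43 to -1.02, and in 3 of 8 other alternatives. ITGB1 had a log2 fold change of 0.060 (SE 0.21, adjusted p = 0.966, edgeR) in Fib-like cells.

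Of 9 genes for the induction of collagen transcription, 8 were tested in Fib-like cells and 0 were DEGs by edgeR or DESeq2, with 1 at an unadjusted p under 0.05 and a median log2 fold change of -0.0060. All 9 were tested in whole libraries and in stromal-like cells, with 0 DEGs by edgeR and 2 and 1 genes at an unadjusted p under 0.05, and DESeq2 called TGFB2 and CCN2 as higher in whole libraries (4.52% of all genes were called). CCN2, TGFBR2 and TGFB2 had log2 fold changes of 0.22, -0.34 and -0.065 (adjusted p = 0.940, 0.733 and 0.973, edgeR). None of these lists had a DEG in MC-like cells, where 14, 4, 5, 4 and 8 genes of the 5 lists were tested, 0, 0, 1, 0 and 1 of them had an unadjusted p under 0.05 and DESeq2 called 0.

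Among the 32 other collagens, COL4A2, a chain of the type IV collagen of basement membranes, was a DEG and rose in whole libraries, from 10.4, 11.4 and 9.84 CPM to 42.4, 37.6 and 58.1 CPM (scaled by TMM, log2 fold change 2.13, SE 0.19, adjusted p = 0.0351, edgeR). It was the 1 DEG of 20 tested there, against 0.0839% of all genes, and 11 had an unadjusted p under 0.05, against 12.9%. In stromal-like cells COL4A2 rose as well, from 143, 169 and 100 CPM to 282, 361 and 309 CPM (log2 fold change 1.22, SE 0.23, adjusted p = 0.0397, edgeR), as the 1 DEG of 10 tested, against 1.93% of all genes, and 3 had an unadjusted p under 0.05, against 19%. Of 6 fits without 1 library, the one without asthma replicate 11 kept both calls (adjusted p = 0.0340 and 0.0356) and the other 5 lost them (up to 0.153 and 0.187, edgeR), with log2 fold changes from 1.92 to 2.25 and from 1.02 to 1.39 over the 6 fits, while other alternatives kept them in 5 of 5 and 7 of 8. The part of the capillary EC-like and SEMA3G-led cells, far more numerous in the asthma libraries, in the COL4A2, TIMP1 and DDR2 values of stromal-like cells was not tested. Of the 32, 20 were tested in whole libraries, 10 in stromal-like, 7 in Fib-like and 8 in MC-like cells, with median log2 fold changes of 1.11, 0.63, 0.072 and 0.38. DESeq2 called 6 of them as higher in whole libraries, COL4A2 among them, where it called 4.52% of all genes, 1 in stromal-like cells (COL4A2), where it called 4.81%, and 0 in Fib-like and MC-like cells, where edgeR called 0 as well and 2 and 0 had an unadjusted p under 0.05. In Fib-like cells the most abundant was COL14A1, a collagen found on fibril surfaces, with 2088, 2793 and 1493 CPM in the control and 1853, 1821 and 1833 CPM in the asthma libraries (log2 fold change -0.21, SE 0.28, adjusted p = 0.874, edgeR). COL16A1 and COL6A6, the latter a further chain of type VI collagen, had every asthma library higher, as did 8.01% of all genes, with log2 fold changes of 0.72 (SE 0.27) and 1.07 (SE 0.37), and neither passed the test (adjusted p = 0.371 and 0.319, edgeR).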

How the data were processed

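The authors aligned the reads of each lung library with Cell Ranger and deposited raw UMI counts for each barcode and gene. The submitters' processing notes name Cell Ranger 2.1.1 and the file headers 4.0.0, the study's methods name a further version, and macFas6 is the genome build. How fully the annotation holds the 3′ end of each gene, on which its count depends, was not tested. The 9 genes, the gene lists and the markers were chosen with earlier results of these data known.

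From the counts, barcodes were retained if they had over 500 and under 5000 genes, 500 UMIs or more and a mitochondrial share of up to 25%. Cells were clustered (scanpy 1.11.5, leidenalg 0.10.2, 2000 variable genes without collagen and pathway genes, 10 components, 20 neighbours, resolution 0.8) and named by marker lists. Doublets were kept. Scrublet itself marked 1 to 3 cells per library. The alternative did not use these calls and removed the cells with the highest Scrublet scores, a preset 0.8% per 1000 cells. Counts were summed per library and population and tested with edgeR 4.0.16 (quasi-likelihood, TMM, filterByExpr, Benjamini-Hochberg over all genes tested, R 4.3.3), for populations with 2 or more libraries per group of 10 or more cells each. Total UMIs of retained cells were between 24593874 and 34526867 per library. Intervals are at 95%, Wilson for shares of cells and exact for ratios, and a count of 0 was set to 3 UMIs for its upper limit.

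The 9 genes were named in each fit that tested them. Of each list, DEGs (up to 3 in each direction) and the 3 genes with the highest mean in Fib-like cells were named. Likeness was taken over the 5 genes nearest to COL1A1, COL6A3 and COL27A1, with at least 10 CPM in 1 unit. Other genes, populations and sub-clusters named were chosen after their values were seen. Alternatives were DESeq2 1.42.0, no filter on low counts, a mitochondrial maximum of 10%, at least 200 genes, a resolution of 1.6, collagen genes kept for clustering, mixed sub-clusters kept and each library left out. Use of the CCL11-led sub-cluster alone was chosen after seeing the data. The tests were checked on simulated data, and no result of that check is given or used here. The 1 DEG of the MC-like cells is left out. With the clusters used, SMC-like, SMC2-like and myofibroblast-like cells did not reach 2 libraries of 10 or more cells in each group. No fit of asthma against control was therefore made for them, nor for the difference between Fib-like and myofibroblast-like cells.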

Additional observations from a re-analysis of the deposited data

Results flagged for a closer look

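Signal of the 9 genes was also found in data outside the comparisons, the barcodes removed by quality control, which numbered 1050, 2313 and 1829 in the control and 2132, 2344 and 1230 in the asthma libraries. For 8 of the 9 genes, every asthma library exceeded every control library there, against 8.35% of the 14315 genes with at least 1 CPM in a library. The lowest asthma library had 89.4 CPM of COL1A1 against 32.7 CPM in the highest control library. For COL1A2 it was 75.3 against 24.3 CPM, for COL3A1 69.5 against 22.1 CPM and for COL5A1 1.38 against 0.418 CPM. COL5A2 had 13.9 against 3.34 CPM, COL6A1 9.38 against 5.64 CPM, COL6A2 75.5 against 26.9 CPM and COL6A3 3.18 against 0.332 CPM. COL27A1 was the exception, with 3.15, 1.86 and 11.7 CPM in the control and 4.27, 6.34 and 1.65 CPM in the asthma libraries. Summed over the 9 genes, the removed barcodes held 59.0, 103 and 76.9 CPM against 608, 531 and 384 CPM. DCN moved with them, at 87.2, 82.4 and 103 CPM against 452, 426 and 533 CPM. The groups overlapped for LUM, another fibroblast marker, at 5.97, 4.87 and 7.52 CPM against 28.5, 7.33 and 61.8 CPM. Of the MC markers, UPK3B was higher in every asthma library, at 38.6, 36.7 and 46.4 CPM against 221, 475 and 49.6 CPM. MSLN overlapped, at 71.2, 75.1 and 152 CPM against 865, 1073 and 72.5 CPM. The median mitochondrial share of these barcodes was 40.9%, 56.3% and 44.8% against 47.7%, 58.3% and 26.2%. Those removed also included barcodes with 5000 genes or more, which numbered 109, 111 and 57 against 217, 150 and 52. Their part in the collagen values was not tested. Whether cells with fibroblast or MC markers were removed more often in the asthma libraries was not tested.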

How the results depend on the processing

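Of 426 log2 fold changes of single collagen genes under alternatives, 381 kept their direction, 45 turned and 0 had an adjusted p under 0.05 (COL27A1 in Fib-like cells, tested only without a filter, is not among them). Of the 45, 32 came from leaving out 1 library and 13 from other alternatives, and the cause was not tested. No paired analysis was possible because the control and asthma groups share no replicate number. A library held 44 to 234 Fib-like and 31 to 271 MC-like cells, so that levels of a few CPM there rest on a few UMIs.

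Leaving out 1 library at a time moved the number of DEGs from 12 to between 0 and 11 in whole libraries, from 184 to between 0 and 373 in stromal-like cells, from 25 to between 0 and 71 in Fib-like cells and from 1 to between 0 and 3 in MC-like cells, with 0 of the 9 genes among them in each of these fits. Of the 32 turns, 11 came without control replicate 2, 7 without asthma replicate 8, 5 each without control replicates 1 and 3, and 4 without asthma replicate 11. In Fib-like cells the log2 fold changes ranged from -1.24 to 1.72 for COL1A1, -0.51 to 1.42 for COL1A2, -0.77 to 1.79 for COL3A1, 0.47 to 1.89 for COL5A1, -0.11 to 0.76 for COL5A2, -0.18 to 0.22 for COL6A1, 0.17 to 0.73 for COL6A2 and 0.92 to 1.07 for COL6A3. In stromal-like cells they ranged from -2.31 to 1.25 for COL1A1, -1.54 to 0.98 for COL1A2, -1.74 to 1.04 for COL3A1, -0.48 to 0.62 for COL5A1, -0.53 to 0.59 for COL5A2, -0.83 to -0.17 for COL6A1, -0.62 to 0.35 for COL6A2, -0.14 to 0.55 for COL6A3 and 0.47 to 1.23 for COL27A1. In whole libraries they ranged from -1.09 to 1.92 for COL1A1, -0.31 to 1.87 for COL1A2, -0.40 to 1.90 for COL3A1, 0.78 to 1.35 for COL5A1, 0.45 to 1.49 for COL5A2, 0.19 to 0.97 for COL6A1, 0.42 to 1.14 for COL6A2, 0.89 to 2.0 for COL6A3 and 0.30 to 1.96 for COL27A1. In MC-like cells they ranged from -0.21 to 0.20 for COL1A1, 0.33 to 1.96 for COL1A2, -0.12 to 0.60 for COL3A1, 0.056 to 0.43 for COL5A2, -0.13 to 0.38 for COL6A1 and -0.032 to 0.48 for COL6A2.

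Other alternatives turned COL3A1 in whole libraries (-0.085 at a mitochondrial maximum of 10%) and COL1A2 in Fib-like cells (0.044 at that maximum, 0.075 with at least 200 genes, 0.12 with doublets removed). In the CCL11-led sub-cluster alone, chosen after seeing the data, COL5A2 was at -0.23 and COL6A1 at -0.28. In MC-like cells COL3A1, COL5A2 and COL6A1 were at -0.15, -0.020 and -0.26 at the lower mitochondrial maximum and at -0.11, -0.024 and -0.055 with collagen genes kept for clustering, and COL1A1 was at 0.088 with mixed sub-clusters kept.

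DEG numbers with DESeq2 were 647 in whole libraries, 459 in stromal-like, 65 in Fib-like and 15 in MC-like cells. Without a filter they were 45, 641, 360 and 325, and COL27A1 in Fib-like cells was then 1 of them, while the median log2 fold change of all genes moved to 0.11 in stromal-like and 0.12 in Fib-like cells. At least 200 genes gave 7 in whole libraries, 38 in Fib-like and 0 in MC-like cells, and the lower mitochondrial maximum 57 in Fib-like and 0 in MC-like cells. The CCL11-led sub-cluster alone gave 1. In MC-like cells a resolution of 1.6 and collagen genes kept gave 2 each and mixed sub-clusters kept 4, and in stromal-like cells the last gave 109. Myofibroblast-like cells could be fitted only at a resolution of 1.6 and with collagen genes kept, and alternatives of clustering do not apply to whole libraries.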
